A study of Mus musculus with 112 samples.

Results

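The comparison set 9 liver arrays of fenofibrate-treated mice against 9 of mice given saline, 18 of the 112 arrays in the study. It describes how large the liver response was, how it varied between mice, and which genes rose or fell. All animals were male C57BL/6J mice dosed by mouth (p.o.) for 8 days, fenofibrate at 150 mg/kg, and the saline that the control mice received was also the carrier, with Tween-80, for the drugs. Tesaglitazar at 1.5 mg/kg and bezafibrate at 75 mg/kg were given to further groups, and the design names 10 mice a group. The labels give no genetic modification. Whole liver was taken, with every cell type it holds. The array labelled saline 4 was left out, since its signals matched those of the tesaglitazar livers, and the named genes whose call is lost with it kept are listed below.

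Fenofibrate is a fibrate, a prodrug whose acid form activates peroxisome proliferator-activated receptor alpha (PPAR-alpha), a nuclear receptor abundant in hepatocytes. The receptor pairs with the retinoid X receptor and binds repeats of the hexamer AGGTCA that are spaced by a single base. In rodent liver it is known for inducing enzymes that take up, activate and oxidise fatty acids in peroxisomes, microsomes and mitochondria. Values below are background-corrected, quantile-normalised intensities on the log2 scale, where a difference of 1 is a 2-fold difference. A level is that of 1 probe and is not compared between genes.

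Mean raw intensity per array was 245 to 379 under fenofibrate and 252 to 326 in saline, and 38.1 to 41.7% and 39.6 to 41.5% of the 45281 probes were above background. No 2 of these arrays held identical values. Of all probes, 17768 were above background (detection p under 0.05) on at least 9 of the 18 arrays and were tested, and 15161 of them carried a single gene name. The defining hepatocyte markers were present, with 10 of 10 tested, although the probe for albumin (Alb) was dim, at 5.90 to 7.88 in saline.

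Fenofibrate changed a large share of the measured liver transcripts, and most of the changes were small. At a Benjamini-Hochberg adjusted p under 0.05 in limma's linear model, 6077 probes (34.2% of those tested) differed, 2921 (16.4%) higher and 3156 (17.8%) lower under fenofibrate. Taking 1 probe for each of 9707 genes, 3584 genes (36.9%) differed, 1756 (18.1%) higher and 1828 (18.8%) lower. The median absolute log2 difference was 0.16 over all tested probes and 0.38 over those called, and 4667 of the called probes (76.8%) differed by less than 1.5-fold. At an unadjusted p under 0.05 the number was 7591.

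Large differences were more often rises than falls. At least 2-fold differences were called for 475 probes (2.67%), of which 294 (1.65%) were higher and 181 (1.02%) lower, beside 396 higher of 523 with each array centred on its median. At 4-fold or more the counts were 61 higher and 15 lower, and at 8-fold or more 29 higher and 3 lower. In genes with 1 probe each, 181 rose and 112 fell at least 2-fold, and 19 rose and 3 fell at least 8-fold. Below 1.5-fold the order was the other way, with 1011 higher and 1311 lower calls under 1.25-fold and 1094 and 1251 calls from there to 1.5-fold.

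**Figure D1:**
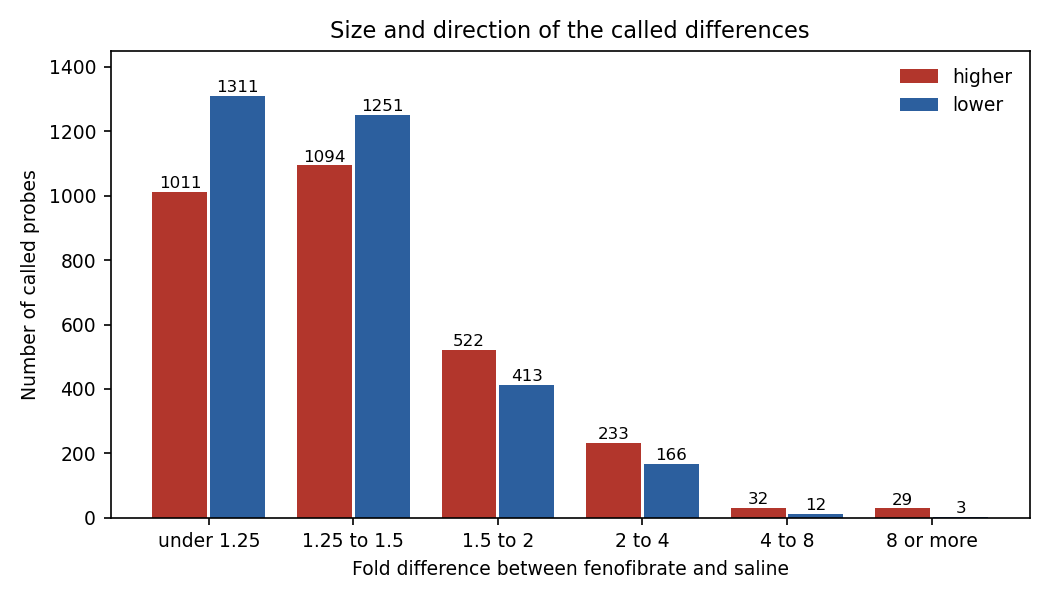
Number of called probes (vertical axis) by the size of their fold difference (horizontal axis), with bars for probes higher (red) and lower (blue) under fenofibrate. Falls outnumber rises under 1.5-fold, and rises outnumber falls in every class from 1.5-fold up.

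The split between rises and falls depended on the scaling of the arrays, and that of the large differences moved as well. Quantile normalisation, which gives all arrays one distribution, made 48.1% of the calls rises, and centring each array on its median made 74.6% of them rises (3496 higher and 1188 lower of 4684). The median difference over all tested probes moved from -0.02 to 0.07, and that of the 4442 brightest probes from -0.01 to 0.15. Of the calls, 2814 rises and 1188 falls were shared by both scalings, and 0 probes were called in opposite directions. Of the 475 probes called at 2-fold or more, 474 were called in the same direction with median centring, which itself gave 523 such calls. The direction of small differences is therefore relative to the scaling.

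Bright probes were called more often than dim ones. In 4 equal classes of 4442 probes, from dimmest to brightest, 17.7%, 31.1%, 38.7% and 49.3% were called, and the median absolute difference went from 0.11 to 0.21. The dim classes lie near the offset of the background correction, which shrinks fold changes, and its part in this order was not tested.

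**Figure D2:**
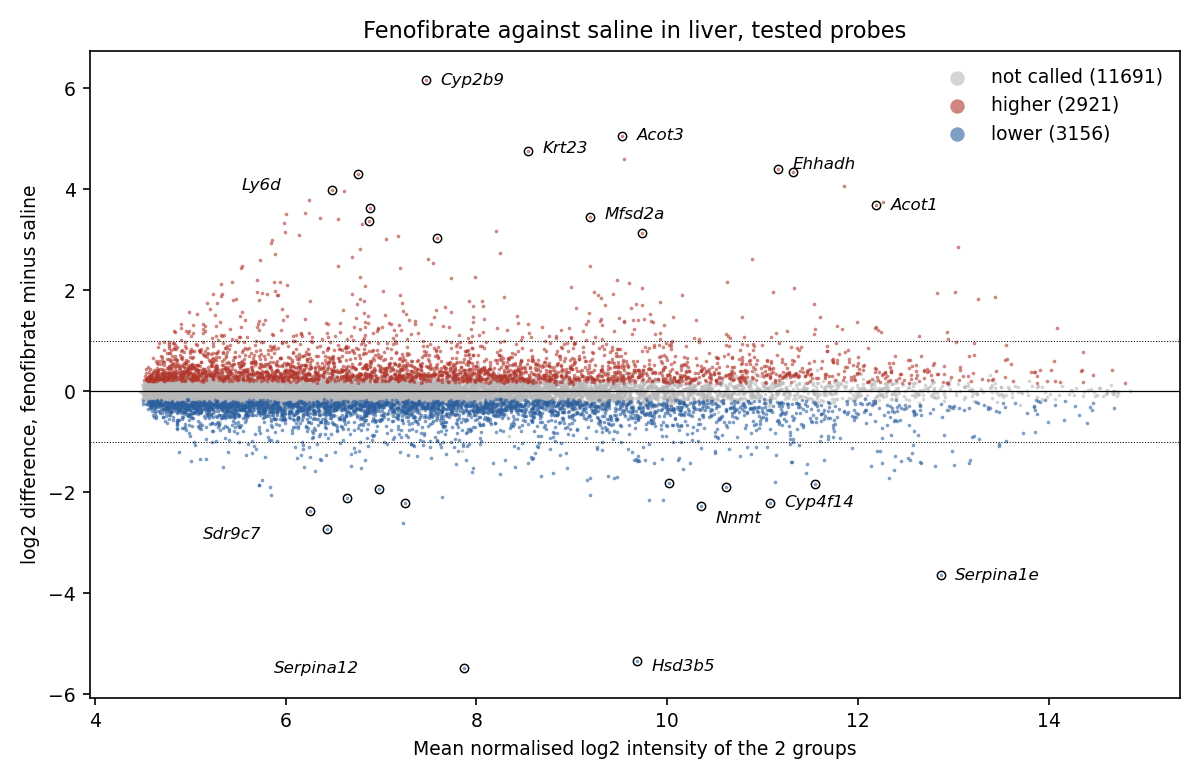
Mean normalised log2 intensity of both groups (horizontal axis) against the log2 difference, fenofibrate minus saline (vertical axis), for the 17768 tested probes. Probes called higher are red, called lower blue and others grey, open circles mark the 26 genes with the largest differences, and dotted lines mark 2-fold. Rises reach 6.16 (Cyp2b9) and falls -5.49 (Serpina12).

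The spread between mice was of like size in the groups. The median SD of a probe was 0.19 in saline and 0.18 under fenofibrate (n = 9 each), the median SE of a difference was 0.09, and 75.2% of tested probes had a 95% interval within 0.5 log2 units of no change. A test of unequal spread called 0 probes in limma (0%), with 1368 past an unadjusted 0.05 and a smallest adjusted p of 0.129. The same test with limma's trend and robust settings called 21. Both groups stood apart without overlap at 1469 probes (8.27% of those tested), 825 (4.64%) with fenofibrate higher and 644 (3.62%) with it lower. They also did so at 403 of the 475 probes called at 2-fold or more, a count favoured by choosing the 475 for their difference on these arrays.

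Mice numbered 1 to 20 and 21 to 40 gave separate estimates with no shared array. The first had 4 saline and 5 fenofibrate arrays and gave 4031 calls, and the second had 5 and 4 and gave 3813. Of 2307 probes called in both, 2303 had the same direction. All 475 probes of at least 2-fold in the whole comparison also had the same direction in each. Those 475 were chosen by their difference on these same arrays, so the choice favours this agreement and it is no separate support. Across the 17768 probes, which are not independent replicates, Pearson's r between both sets of differences was 0.846, and 73.3% had the same sign.

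The genes with the largest rises were led by enzymes of fatty acid handling. They were taken from called genes above background on all 18 arrays, in order of their log2 difference, so their size is a description of how they were chosen. Acot3, a peroxisomal acyl-CoA thioesterase, ran from 5.99 through a median of 6.88 to 7.96 in saline and from 11.60 through 12.20 to 12.49 under fenofibrate. The groups lay far apart, with a log2 difference of 5.06 ± 0.20 (SE, n = 9 and 9), 33.4-fold, at a limma adjusted p of 8.4e-15. Ehhadh, the bifunctional enzyme of peroxisomal beta-oxidation, had 8.25, 8.72 and 10.24 as lowest, median and highest saline levels and 12.92, 13.40 and 13.86 under fenofibrate. Every fenofibrate mouse was above every saline mouse, and the difference was 4.40 ± 0.19, or 21.1-fold (adjusted p = 2.9e-14).

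Cyp4a31 belongs to the cytochrome P450 family that hydroxylates the terminal carbon of fatty acids. Its levels were 8.52, 9.12 and 10.05 in saline and 13.01, 13.59 and 13.63 under fenofibrate, a difference of 4.35 ± 0.14. Acot1, the cytosolic acyl-CoA thioesterase, was bright in both groups, at 10.12, 10.33 and 10.64 in saline and 13.58, 14.03 and 14.26 under fenofibrate (difference 3.69 ± 0.09), and its second probe gave 4.61. Neither gene's groups overlapped. Members of the Acot and Cyp4a families are similar in sequence, so a probe may read a neighbouring gene as well.

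Cpt1b, the muscle form of the enzyme that passes long-chain fatty acids to carnitine for entry into mitochondria, rose from a saline median of 5.04 (4.74 to 5.65) to 8.74 (7.73 to 9.37), by 3.62 ± 0.16, and its second probe by 1.93. Vldlr, a receptor for triglyceride-rich lipoproteins, rose from 6.02 (5.44 to 7.18) to 9.08 (8.61 to 9.60), and its 3 probes gave 3.01 to 3.08. Hsd17b11, a dehydrogenase found on lipid droplets, rose from 8.30 (7.44 to 8.77) to 11.41 (10.63 to 11.77), by 3.13 ± 0.16. These genes separated the groups completely.

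Not all of the leading rises were lipid enzymes. Krt23, a type I keratin, rose from 6.20 (5.64 to 6.89) to 10.91 (10.54 to 11.22), by 4.76 ± 0.13, or 27-fold. Lamb3, a laminin beta chain, rose from 5.22 (4.93 to 5.35) to 8.62 (7.51 to 9.40), by 3.37 ± 0.17. Mfsd2a, a transporter of lysophospholipids that carry fatty acids, differed by 3.44 ± 0.31 and was the most variable of these in saline, where it ran from 6.04 through 7.50 to 9.66 (SD 1.03) against 10.50 to 11.36 under fenofibrate (SD 0.31). Its groups still did not overlap.

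Among called genes at background on some arrays, Cyp2b9, Acot2 and Ly6d had the largest rises. Cyp2b9, a P450 known for higher expression in female mouse liver, was above background on 2 of 9 saline arrays (4.18 to 4.82, median 4.33) and on all 9 fenofibrate arrays (8.86 to 11.91, median 10.35). The fitted difference of 6.16 ± 0.30 therefore rests on a saline level near the floor, and other Cyp2b genes may contribute to the signal. Acot2, the mitochondrial acyl-CoA thioesterase, went from a median of 4.52 to 8.89, by 4.31 ± 0.16 on one probe, while its second, dim probe gave 0.07 (adjusted p = 0.6). Ly6d, a small membrane-anchored protein best known from lymphoid cells, went from 4.48 (4.32 to 4.68) to 8.49 (7.29 to 9.67), by 3.98 ± 0.19, and a second probe gave 3.52. Of 8 lymphocyte markers on the array only 2 could be tested, Cd79b and Cd3g, and they were not called (-0.07 and -0.13). Cd79b lay near the floor, at 4.74 to 5.66 in saline, and the cell type behind the Ly6d signal was not tested.

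The falls were led by secreted proteins and by enzymes known for higher expression in male liver. Serpina1e, of the alpha-1-antitrypsin family, had saline levels of 14.56, 14.68 and 14.88 and fenofibrate levels of 8.82, 11.52 and 12.22. The groups did not overlap, and the fall of -3.64 ± 0.38 (12.5-fold, adjusted p = 9.4e-08) came with an SD of 1.35 among treated mice against 0.10 in saline. Hsd3b5, a steroid reductase of male mouse liver, had saline levels of 11.71, 12.39 and 12.92 and fenofibrate levels of 4.54, 7.60 and 8.23, a difference of -5.35 ± 0.36. Serpina12, which encodes the secreted protein vaspin, had 7.22, 10.94 and 11.50 in saline and 4.26, 5.15 and 6.37 under fenofibrate, a difference of -5.49 ± 0.41. Both were above background on 8 of 9 fenofibrate arrays, and neither's groups overlapped.

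Serpina1e, Cyp2b9 and Hsd3b5 had the lowest spread-test p-values of the leading genes, although none passed (adjusted p = 0.129, 0.223 and 0.355). In each, mouse 37 held the extreme treated value. Serpina1e, Serpina12 and Serpina4-ps1 lie within a few genes of each other on chromosome 12, and Serpina1 copies are near-identical, so the probe may not separate them.

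Cyp4f14, a P450 that hydroxylates leukotrienes and fatty acids, fell from 12.19 (11.94 to 12.33) to 10.16 (8.86 to 10.47), by -2.21 ± 0.16, against the direction of the Cyp4a genes. Sdr9c7, a short-chain dehydrogenase, fell from 7.93 (7.25 to 8.33) to 5.06 (4.69 to 5.46), by -2.73 ± 0.13, and its other probes gave -2.05 and -1.35. Nnmt, which methylates nicotinamide, fell from 11.46 (10.93 to 12.34) to 9.24 (8.74 to 9.75), by -2.27 ± 0.15 with -2.16 and -2.09 on its other probes. All 3 genes separated the groups.

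Among the remaining leading falls, Slco1a4, an organic anion uptake transporter, differed by -2.22 ± 0.19 and Slc30a10, a manganese exporter, by -1.93 ± 0.10, with only -0.68 and -0.65 on its other, dimmer probes. C8b, the beta chain of complement component C8, differed by -1.90 ± 0.16, Mup5, a major urinary protein, by -1.83 ± 0.18 (-1.11 on its second probe), and Ppp1r3c, which targets protein phosphatase 1 to glycogen, by -1.82 ± 0.14. Hectd2os, an RNA annotated on the strand opposite to Hectd2, differed by -2.38 ± 0.16. Serpina4-ps1, a serpin pseudogene, differed by -2.11 ± 0.33 and was the only one of the 26 whose groups overlapped, since mouse 17 (7.74) lay inside the saline range of 6.42 to 8.52. The 26 genes kept their direction in both sets of mouse numbers and their call with median centring and with saline 4 kept. Having been chosen for their size on these same arrays, they were favoured in this.

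**Figure D3:**
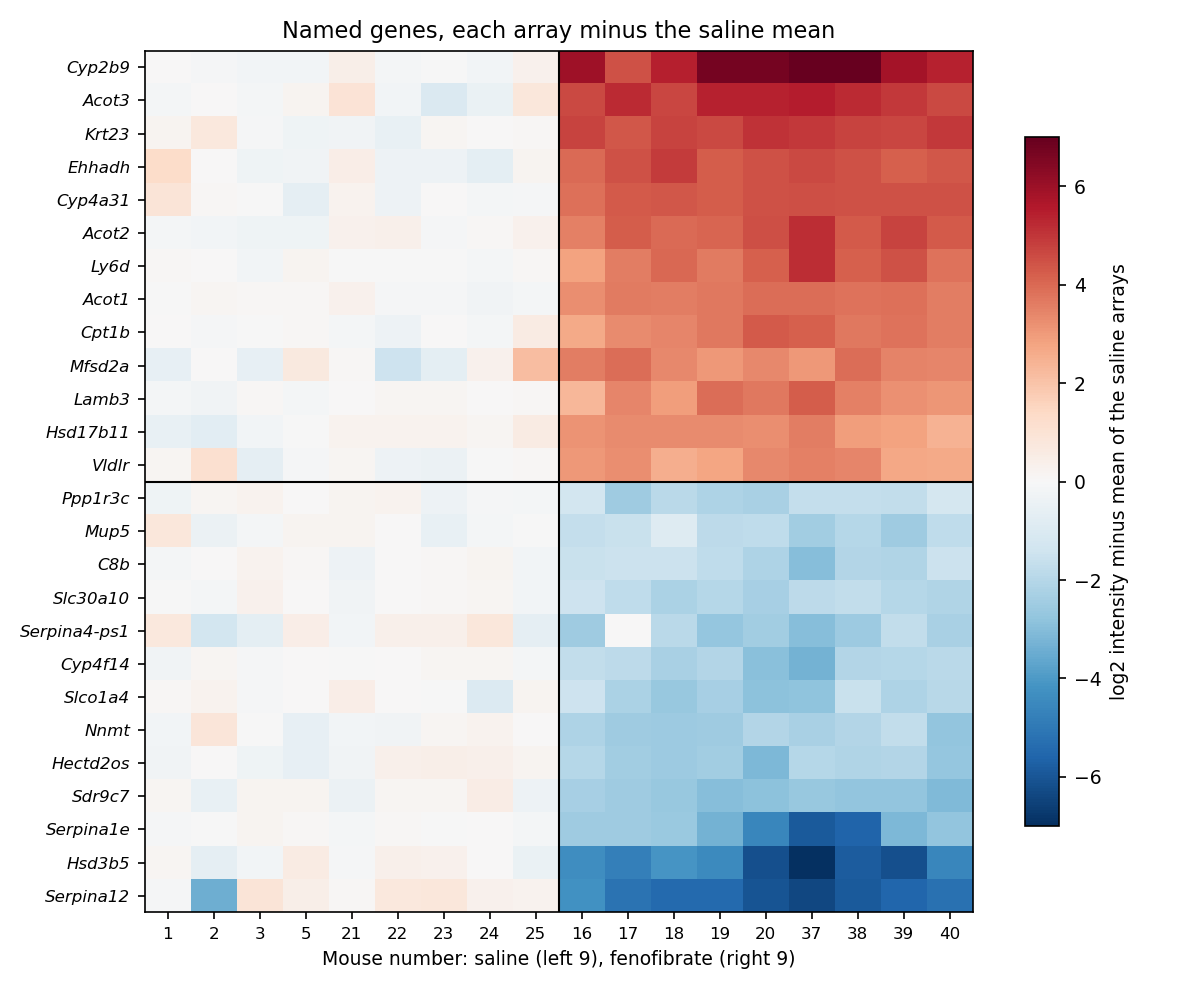
Each of the 26 leading genes (rows) on each array (columns, by mouse number), as the log2 intensity minus the mean of the 9 saline arrays, with red higher and blue lower. The treated columns are uniform in direction except for Serpina4-ps1 in mouse 17, at 7.74 beside a saline mean of 7.70. Mouse 16 is among the palest in many rows, and Serpina1e, Hsd3b5 and Cyp2b9 vary most among treated mice.

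Genes of peroxisomal fatty acid oxidation rose together. Of 25 genes listed, 21 passed the detection filter. Of these 17 rose and 0 fell, with a median log2 difference of 1.16 beside -0.02 over all tested genes. Over all tested genes 18.1% rose and 18.8% fell, which is the background for every list count below. Acot3 had the largest rise, and Acaa1b, a peroxisomal thiolase and the brightest member, rose from 13.99 (13.74 to 14.30) to 14.73 (14.60 to 14.88), by 0.77 ± 0.07. Pex11a, which takes part in peroxisome division, and Crat, which forms carnitine esters, rose by 2.04 and 2.53, and these were chosen after their values were seen. The 4 members not called were Amacr, Scp2, Acox2 and Acox3, with differences from -0.08 to 0.12. On chromosome 12 the neighbouring genes Acot2, Acot1, Acot4, Acot3 and Acot6 all rose, by 4.31, 3.69, 2.49, 5.06 and 1.90.

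Mitochondrial fatty acid oxidation had 17 of 19 tested genes higher and 0 lower, with a median of 0.86. Acot2 and Cpt1b were the largest, and the acyl-CoA dehydrogenases Acadl, Acadm, Acadvl and Acads rose by 1.13, 0.92, 0.80 and 0.57. Etfa, which passes electrons from these dehydrogenases to the respiratory chain, was the brightest member and was not called, at 13.58 (13.25 to 13.76) and 13.63 (13.37 to 13.74). Etfa was 0.24 higher with median centring (adjusted p = 0.016). All 10 tested genes of fatty acid uptake, binding and activation rose (median 1.84), from Acot1 at 3.69 to Slc27a2, a bright fatty acid transporter and activating enzyme, at 0.38 ± 0.07. Lpl, the lipase that frees fatty acids from lipoproteins, rose by 2.61. Fabp3, the heart-type fatty acid binding protein, was not well above background on any saline array and was at least 9.38-fold higher.

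Of 9 tested genes of omega-hydroxylation, 6 rose and 2 fell. Cyp4a31 had the largest rise and Cyp4f14 the largest fall, and Aldh3a2, the fatty aldehyde dehydrogenase that follows in the pathway, rose from 12.36 (11.96 to 12.79) to 14.19 (13.97 to 14.38), by 1.82 ± 0.09. The 3 tested genes of ketone body synthesis and its regulation were higher, Acat1 by 1.27 ± 0.12, the hormone Fgf21 by 0.82 and Bdh1 by 0.41 ± 0.07. The groups did not overlap for Acat1 and did for Bdh1.

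Genes of lipid droplets and lipolysis had 12 of 15 higher and 0 lower, with a median of 0.91. Cidea, a droplet protein of brown fat, was at background on all saline arrays and ran from 6.18 through 7.66 to 8.76 under fenofibrate, at least 8.65-fold higher. Mgll, the monoglyceride lipase and the brightest member, rose from 9.59 (9.03 to 9.85) to 11.72 (11.22 to 11.94), by 2.16 ± 0.11, with 2.20 and 2.07 on its other probes. A gene read only under fenofibrate can pass the detection filter on those arrays alone, which held for 4 of 355 tested genes of the pathway lists (Fabp3, Cidea, Aqp7 and Aqp3). Of the list of brown fat type genes, 4 of 6 rose and Elovl3, an elongase of very long chain fatty acids, fell by -0.78 ± 0.15. Of 5 listed adipocyte markers on the array, only Car3 was above background on enough arrays. It fell by -1.36 ± 0.14 from 13.83 (13.63 to 14.07) to 12.55 (11.63 to 13.05). With no other marker tested, this is not a reading of adipocytes, and the cell type behind the Car3 signal was not tested.

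Synthesis genes moved less. Of 23 tested genes of fatty acid and triglyceride synthesis, 13 rose and 3 fell, with a median of 0.29. Me1, malic enzyme, rose from 8.53 (7.79 to 9.01) to 10.30 (9.99 to 11.04), by 1.92 ± 0.16, and Scd1, the bright stearoyl-CoA desaturase, by 0.31 ± 0.09 with overlapping groups. Of 15 genes of cholesterol synthesis 7 rose and 0 fell, with Hsd17b7 at 0.69 ± 0.12 and the brightest, Fdps, at 0.33 (adjusted p = 0.105). With median centring, which raised bright probes, 11 of them rose. Apolipoproteins and lipoprotein processing had 3 higher and 7 lower of 18, beside 18.1% higher and 18.8% lower over all genes. Pltp, the phospholipid transfer protein, rose by 1.99 ± 0.09 and Apoa4 fell by -1.42 ± 0.15, both without overlap, while Apoa2, the brightest, was at 14.69 in both groups.

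**Figure D4:**
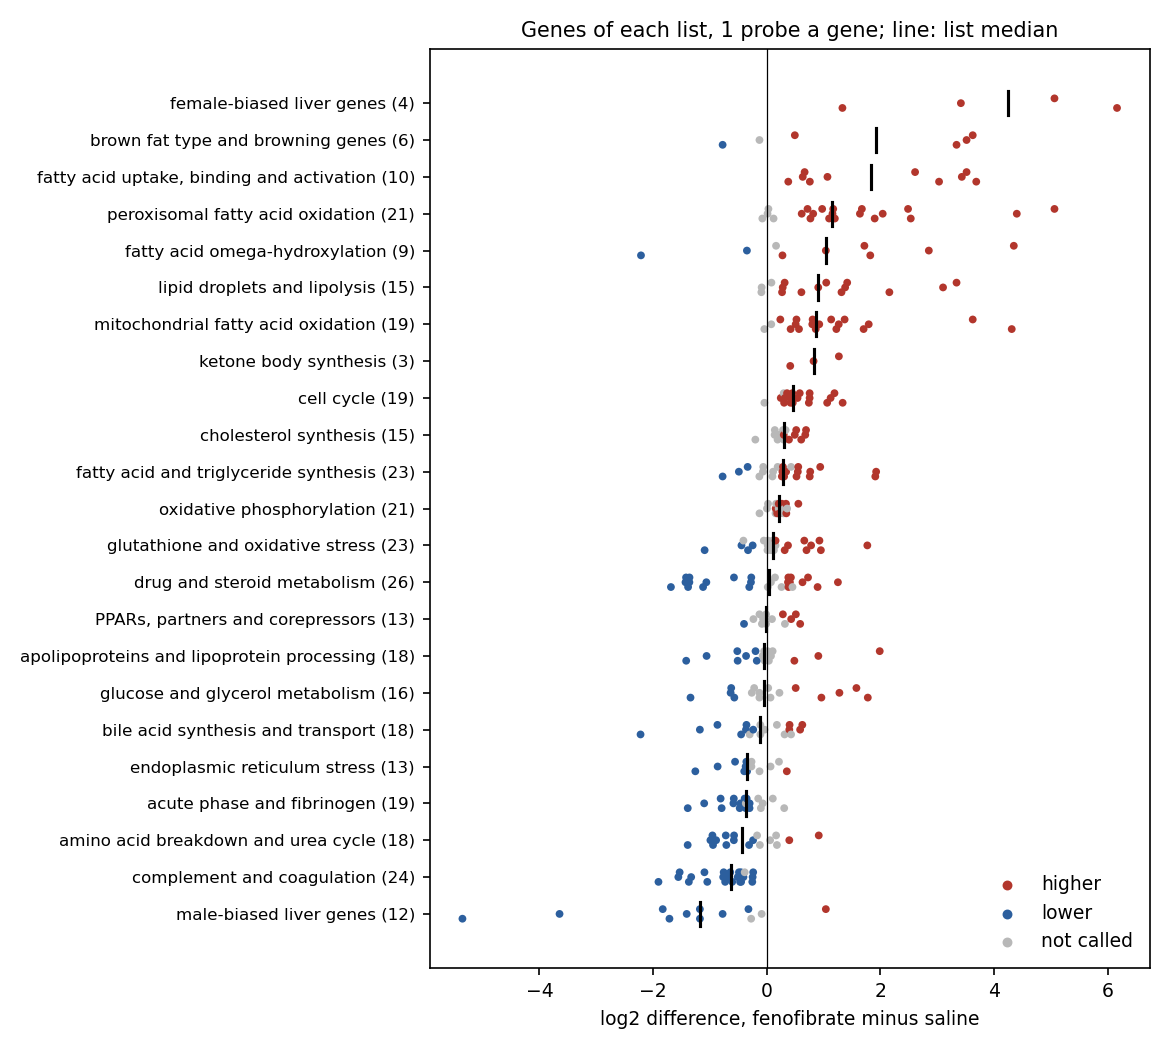
log2 difference between fenofibrate and saline (horizontal axis) of each tested gene in the 23 pathway lists (rows, number tested in brackets), red where called higher, blue where called lower and grey otherwise. The black line is the list's median, which runs from -1.18 for male-biased genes to 4.24 for the 4 female-biased genes that passed the detection filter.

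Genes of complement and coagulation fell nearly throughout. Of 24 tested, 23 were lower and 0 higher (the background over all genes was 18.8% lower), with a median of -0.62. C8b fell from 11.63 (11.22 to 11.81) to 9.78 (8.58 to 10.09), and its partner C8a, the next gene on chromosome 4, by -1.37. C8g, the gamma chain and the brightest member over both groups, fell from 13.17 (12.98 to 13.22) to 12.63 (12.53 to 12.79), by -0.51 ± 0.06. Serpinc1, antithrombin, was the 1 member not called, at -0.39. With median centring 16 of the 24 were lower and 0 higher, and with saline 4 kept 20 were.

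Acute phase proteins and fibrinogen chains had 13 of 19 lower and 0 higher (8 lower with median centring). Itih4 fell from 13.11 (12.94 to 13.59) to 11.68 (11.32 to 12.15), by -1.39 ± 0.10, and Hpx, the heme carrier hemopexin, by -0.48 ± 0.07. The groups overlapped in neither. Of 18 genes of amino acid breakdown and the urea cycle, 11 fell and 2 rose (7 and 2 with median centring). Over all genes 18.8% fell and 18.1% rose. Cbs, which makes cystathionine, fell by -1.39 ± 0.10 from 10.43 (9.99 to 10.92) to 8.99 (8.75 to 9.20). The urea cycle genes Cps1, Otc, Ass1 and Asl fell by -0.95, -0.71, -0.89 and -0.94, whereas Arg1, the last step, was at -0.12 and was not called. Psat1, of serine synthesis, was 0.91 ± 0.16 higher, but with saline 4 kept its difference was 0.67 (adjusted p = 0.093).

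Of 10 hepatocyte markers 6 were lower and 0 higher (18.8% of all genes were lower). Among the falls were Trf, transferrin, at -0.33 ± 0.06, the dim Alb probe at -1.04 ± 0.23, and Cps1, which is also counted with the urea cycle genes. Ttr, Apoa1, Rbp4 and Hnf4a were not called (-0.06, -0.03, -0.14 and -0.21). The summed level of the 10, on the linear scale, was 142436 to 155184 in saline and 111845 to 127620 under fenofibrate. In whole liver, fewer cells of a type and less RNA per cell cannot be told apart. The part of this lower summed level in the falls of secreted protein genes was not tested.

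The tested sex-biased liver genes moved in opposite directions by list. Of 12 tested genes known for higher expression in male liver, 9 fell and 1 rose, with a median of -1.18. Over all genes 18.8% fell and 18.1% rose. Of 14 listed female-biased genes 12 were on the array, and only 4 passed the detection filter, all of them higher. A gene at background in saline, such as Cyp2b9 on most saline arrays, passes the filter only if fenofibrate raises it. The count of female-biased rises and their median are therefore favoured by the filter. The female list holds Acot3 and Cyp2b9, and further Cyp2a4 at 3.41 and Cyp17a1 at 1.33. The single male-biased rise was Cyp4a12a (12.47 to 13.49 in median, by 1.04 ± 0.10), a member of the fatty acid hydroxylase family whose other tested members rose. Mup2, the brightest, was not called on its brightest probe, at -0.09 near the top of the scale, while its other probes fell by -0.30 and -0.31 (adjusted p = 0.0061 and 0.024).

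Drug and steroid metabolism had 9 of 26 genes higher and 12 lower, beside 18.1% higher and 18.8% lower over all genes. Cyp2b10, a target of the receptor CAR, rose by 1.25 ± 0.21 with overlapping groups, and Cyp2c54 fell from 9.48 (9.02 to 10.14) to 8.04 (6.79 to 8.46), by -1.69 ± 0.19. Its chromosome 19 neighbours Cyp2c37, Cyp2c50 and Cyp2c70 fell by -1.36, -1.43 and -1.42, and Cyp2c genes are similar enough to share probes. Cyp2e1, the brightest, was at 14.62 and 14.63. For bile acids 4 of 18 genes rose and 7 fell, with the phospholipid exporter Abcb4 at 0.63 ± 0.08, Slco1a4 as the largest fall and the bright uptake transporter Slco1b2 at -0.37 ± 0.08, which was -0.21 with median centring (adjusted p = 0.12).

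Glucose and glycerol genes had 5 of 16 higher and 4 lower, beside 18.1% higher and 18.8% lower over all genes. Pdk4, the kinase that switches off pyruvate dehydrogenase, rose from 5.96 (5.43 to 6.49) to 7.47 (7.08 to 8.89), by 1.78 ± 0.23, while with saline 4 kept the difference was 1.18 (adjusted p = 0.171). Pklr, liver pyruvate kinase, fell by -1.34 ± 0.18 with overlap, and Aqp9, the glycerol channel of hepatocytes, was at 12.70 and 12.77. Glutathione and oxidative stress genes had 9 of 23 higher and 4 lower, led by Gstt2 at 1.77 ± 0.12, whose second probe gave 0.21 (adjusted p = 0.3), and Gstp1 at -1.09 ± 0.12. Gpx1, the brightest, was 0.16 higher (adjusted p = 0.032), and 0.14 with median centring (adjusted p = 0.12).

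Cell cycle genes had 17 of 19 higher and 0 lower, at mostly low levels, with a median of 0.46. Over all genes 18.1% were higher and 18.8% lower. Mcm6, of the replicative helicase, rose from 5.79 (5.21 to 6.25) to 6.76 (6.65 to 7.69), by 1.34 ± 0.17 and with 1.22 and 1.12 on its other probes, and Ccnd1, cyclin D1 and the brightest, by 0.45 ± 0.12 with overlap. With saline 4 kept, 11 were higher. Of 21 genes of oxidative phosphorylation 10 rose and 0 fell, by small amounts: Cycs, cytochrome c, by 0.56 ± 0.06 and Atp5b, an ATP synthase subunit, by 0.18 ± 0.06. With median centring 13 rose, and with saline 4 kept 6. Endoplasmic reticulum stress genes had 1 of 13 higher and 7 lower (1 and 3 with median centring), with Sdf2l1 at -1.26 ± 0.13, Herpud1 at -0.37 ± 0.11 and Dnajb9 at 0.35 ± 0.10.

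Of 13 tested genes for PPARs, their partners and coregulators 4 rose and 1 fell, a share near the 36.9% called over all genes, with Ppara at 0.32 and not called. Nr1i2 and Nr1i3, the xenobiotic receptors PXR and CAR, rose by 0.59 ± 0.09 and 0.51 ± 0.09. Pparg fell by -0.40 ± 0.12, a call lost with median centring (-0.26, adjusted p = 0.17) and with saline 4 kept (-0.27, adjusted p = 0.25).

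Markers of other cell types were called in both directions, beside 36.9% called over all genes. Kupffer cell and macrophage markers had 2 of 8 lower, Clec4f and Vsig4 (-0.52 ± 0.16), and 0 with median centring, and their summed level of 1793 to 3343 in saline overlapped that of 1164 to 4135 under fenofibrate. Stellate cell markers had 4 lower, led by Rgs5 at -0.71 ± 0.13 and with the bright Dcn at -0.45 ± 0.08, and 1 higher, Col1a1 at 0.52 ± 0.15. Sinusoidal endothelial markers had Lyve1 higher by 0.62 ± 0.17 and Clec4g lower by -0.30 ± 0.08, and Mrc1 also lower. Of red cell genes Alas2, the erythroid enzyme of heme synthesis, fell by -1.05 ± 0.11 and Hba-a1 by -0.34. Hbb-bt was at -0.24 and not called on its brightest probe. Its next brightest probe was called by limma at -0.27 (adjusted p = 0.0497), and its others were at -0.20 and -0.31 and not called. Of the brain markers Aqp4, a water channel also found outside brain, was 0.70 ± 0.09 higher and Syt1 was at -0.04. The cholangiocyte marker Tm4sf4 was not called on its brightest probe (0.21, and 0.39 with median centring, adjusted p = 0.016), and a dim second probe was 0.81 higher (adjusted p = 5.6e-06). The neutrophil marker S100a8 (-0.08) was not called.

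Further named genes lost their call with saline 4 kept. They were Clec4f (adjusted p = 0.060), Vsig4 (0.117), Clec4g (0.086), Mrc1 (0.183), Col1a1 (0.054) and Hba-a1 (0.265) among the markers. Among the pathway genes they were Fgf21 (0.343), Slco1b2 (0.077), Cyp2c37 (0.112), Cyp2c50 (0.111), Dnajb9 (0.126) and Herpud1 (0.155), all by limma and all in the same direction as without it. With median centring, calls were also lost for Clec4f, Clec4g, Mrc1, Dcn, Hba-a1, Herpud1 and Otc (adjusted p = 0.051 for Otc to 0.841 for Mrc1). With saline 4 kept, 2 of 3 ketone body genes rose and 9 acute phase, 8 amino acid and 5 drug metabolism genes fell.

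Promoters of 3 of these genes are shown, 250 bases before to 50 after the transcription start. Acot3 and Ehhadh were taken for their large rises. F7 was picked because it fell at least 2-fold and holds a looser form of the receptor's paired element. Its match was therefore fixed by that choice and is no sign of a link between element and response. They are from RefSeq on GRCm38.p6, Acot3 at chr12:84051894-84052193 on the plus strand, Ehhadh at chr16:21787785-21788084 on the minus strand and F7, coagulation factor VII, which fell by -1.10, at chr8:13025784-13026083 on the plus strand. Capitals mark TGACCT, which is AGGTCA on the other strand, in Acot3 and, in F7, a match to the looser paired element AGGNCANAGGNCA, and Ehhadh holds neither.
Acot3: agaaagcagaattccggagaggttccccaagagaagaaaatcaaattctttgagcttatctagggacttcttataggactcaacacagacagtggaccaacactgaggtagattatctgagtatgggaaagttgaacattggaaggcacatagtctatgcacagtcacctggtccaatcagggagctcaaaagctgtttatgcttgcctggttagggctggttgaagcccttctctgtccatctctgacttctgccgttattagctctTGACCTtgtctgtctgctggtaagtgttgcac
Ehhadh: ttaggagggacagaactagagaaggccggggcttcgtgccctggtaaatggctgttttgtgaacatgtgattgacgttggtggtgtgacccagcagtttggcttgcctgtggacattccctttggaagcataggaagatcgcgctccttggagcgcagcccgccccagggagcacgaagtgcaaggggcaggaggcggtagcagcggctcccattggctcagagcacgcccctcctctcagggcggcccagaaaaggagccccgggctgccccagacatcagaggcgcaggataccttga
F7: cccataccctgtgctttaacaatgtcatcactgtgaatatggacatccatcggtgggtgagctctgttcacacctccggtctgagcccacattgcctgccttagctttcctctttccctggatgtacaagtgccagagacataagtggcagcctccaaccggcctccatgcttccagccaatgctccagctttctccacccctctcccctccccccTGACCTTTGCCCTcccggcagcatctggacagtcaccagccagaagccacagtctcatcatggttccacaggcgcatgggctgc

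The hexamer in Acot3 begins 18 bases after the start, and the looser element in F7 begins 34 bases before it. Searched on both strands, AGGTCA was in 18.1% of 27025 promoters and in 15.3% of the 7878 promoters of tested genes. It was in 19.2% of the 146 with an at least 2-fold rise and 16 (19%) of the 84 with an at least 2-fold fall. The difference between these shares was not tested. The paired element AGGTCANAGGTCA, which contains the hexamer, was in 0.0481% of all promoters, 0.0381% of those of tested genes and 0 of the 146 or the 84. The looser AGGNCANAGGNCA, which includes it, was in 0.451% of all, in 0.368% of those of tested genes, in 0 of the 146 and in 2 of the 84. A match is a description of letters in this window, and elements further away were not searched.

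Placed on a line from the saline mean (0) to the fenofibrate mean (1), with its own array left out of the means, each treated mouse lay between 0.76 and 1.18 and each saline mouse between -0.03 and 0.15. Mouse 16 had the smallest response (0.76) and mouse 37 the largest (1.18), and the others lay from 0.89 to 1.10. Bezafibrate arrays lay at 0.18 to 0.40 and tesaglitazar arrays, without the array of mouse 6, at 1.17 to 1.39. Saline 4 lay at 1.35, and at 0.99 on the line from the saline to the tesaglitazar mean, and tesaglitazar 6 lay at 0.05.

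**Figure D5:**
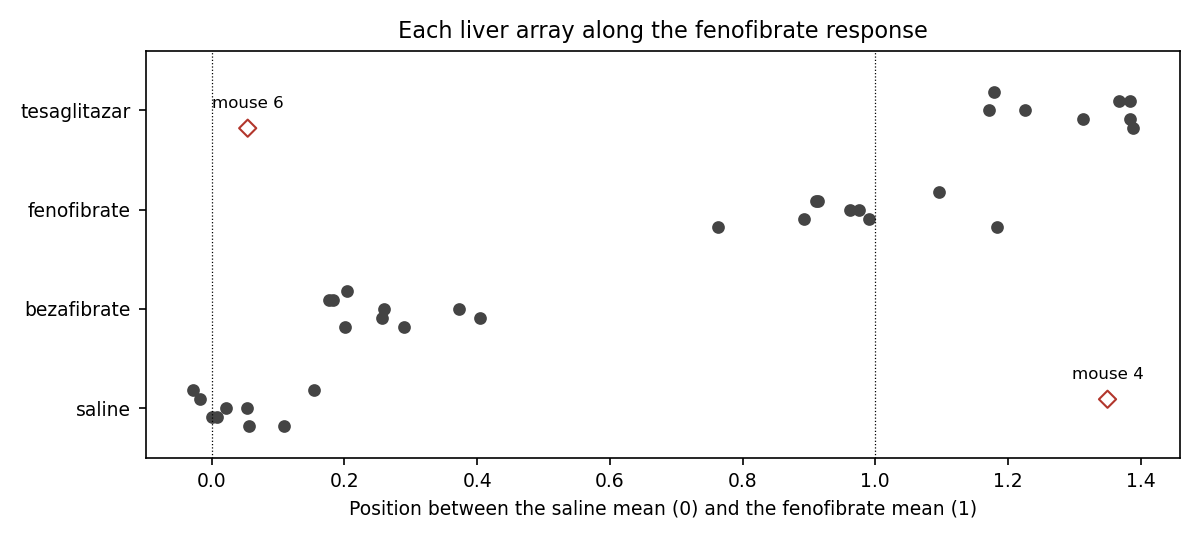
Position of each liver array between the saline mean (0) and the fenofibrate mean (1) on the horizontal axis, by treatment. Open diamonds are saline 4 (mouse 4) and tesaglitazar 6 (mouse 6), which are in no comparison. The fenofibrate arrays lie at 0.76 to 1.18, above all bezafibrate arrays at 0.18 to 0.40.

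The other agonists were given at other doses, so direct contrasts compare the groups as dosed and not the compounds. Fenofibrate and bezafibrate livers differed at 4170 probes (23.5%) and fenofibrate and tesaglitazar livers at 4728 (26.6%). At all 26 leading genes the fenofibrate group was farther from saline than the bezafibrate group. These genes were chosen for their difference between fenofibrate and saline on the same arrays, which favours that count. The tesaglitazar group was farther past an adjusted p of 0.05 in 7 of 13 rises and 9 of 13 falls, and the other genes but Mfsd2a did not pass. Mean Cpt1b levels were 5.07 ± 0.25 in saline, 5.41 ± 0.53 under bezafibrate, 8.69 ± 0.49 under fenofibrate and 9.86 ± 0.31 under tesaglitazar (SD). Mfsd2a was the 1 rise larger under fenofibrate, at 10.91 ± 0.31 beside 9.30 ± 0.68 under tesaglitazar, a difference of 1.62 (adjusted p = 3.2e-04).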

How the data were processed

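RNA was hybridised to Illumina mouse bead arrays. Per the file headers, the deposited table gives a raw intensity and a detection p-value for each probe, with no normalisation. The authors' processed log2 values were an alternative only, and the submitters' processing notes name lumi. Columns were matched to samples by title, and 8 of 120 array columns matched no sample and were not used.

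Intensities were background-corrected from detection p-values (limma's nec, offset 16), quantile normalised over the 18 arrays and put on the log2 scale. Tests were two-sided, by lmFit and eBayes (R 4.3.3, limma 3.58.1), with Benjamini-Hochberg adjustment over all 17768 probes. The contrasts with other agonists used 1 fit of 35 livers, without saline 4 and tesaglitazar 6. The offset understates the fold of dim probes, and bright probes near the top of the scale may be compressed, which was not tested. The number of arrays limits precision.

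Gene names came from GEO's platform annotation, updated through RefSeq on GRCm38.p6. There were 34885 probes with 1 symbol, 18 with several and 10378 with none, and 34818 matched RefSeq. A gene was read from its brightest probe. The leading genes were the 10 largest rises and 10 largest falls among called genes above background on all 18 arrays, and the 3 and 3 largest among the others. From each of 33 lists the largest difference each way and the brightest gene were named, and other named members were chosen after their values were seen. The comparison, its members and the lists were chosen with earlier results of these data known. For a probe at background on all arrays of a group, the fold is a bound against the lowest signal above background. P-values of a difference weigh the group means against the spread between mice, since the labels describe separate animals. Scripts were tested on simulated data. Plots used Python 3.11.15 and matplotlib 3.10.9. Alternatives covered the arrays, background, offset, scaling, filter, fit settings, mouse numbering and the authors' values.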

Additional observations from a re-analysis of the deposited data

Results flagged for a closer look

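In 22 of 182 sets of 9 values (12.1%), the lowest or highest array was set off from its nearest neighbour by more than 0.493 of the range, where chance gives about 1 in 20. The array of saline mouse 2 accounted for 8: it was highest for Vldlr (7.18), Itih4 (13.59), Hpx (14.88) and Rgs5 (7.02), and lowest for Serpina12 (7.22), Slco1b2 (13.77), Pklr (5.66) and Cycs (11.02).

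Other saline arrays set off were mouse 25 for Cpt1b (5.65), mouse 24 for Slco1a4 (7.41) and Hbb-bt (13.29), mouse 22 for Psat1 (5.16), mouse 21 for Vsig4 (10.39) and mouse 3 for Aqp4 (5.21). Under fenofibrate, mouse 37 was set off for C8b (8.58), Psat1 (6.78) and Syt1 (6.88), mouse 16 for Cyp4a31 (13.01) and Cycs (11.52), mouse 17 for Serpina4-ps1 (7.74), mouse 18 for Atp5b (13.97) and mouse 38 for Nr1i2 (8.65).

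The array labelled saline 4, which is in no comparison, lay at 1.35 on the line from saline (0) to fenofibrate (1), above all 9 saline arrays used (at most 0.15).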

How the results depend on the processing

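In 31 alternatives, 18 of which leave out 1 array each, 87 genes were followed. They were the leading genes and the largest and brightest of each list. Other named genes, such as Fgf21, Mrc1 and Hba-a1, were not among them. The 87 gave 2627 outcomes with the same direction and side of the threshold. A further 49 had the same direction but were no longer past it, 11 were newly past it and 0 were reversed. The 26 leading genes, chosen for the largest differences in the main setting, kept their calls in every alternative that could be computed for them. Leaving out each array in turn gave 5617 to 6089 called probes, 458 to 509 at 2-fold or more, 47.7 to 49.0% higher, a median absolute difference of 0.38 to 0.39 and 0 to 5 probes of unequal spread.

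The 475 probes at 2-fold or more became 245 without background correction and 313 with an offset of 50, which raise the floor of dim probes by construction, and 202 in the authors' processed values, where the cause was not tested. Called probes fell from 6077 to 4031 with mice 1 to 20 only and 3813 with mice 21 to 40 only, settings with fewer arrays. The share of rises was 74.6% with median centring, 50.1% with saline 4 kept, 49.6% with no detection filter, 46.6% above background on all 18 arrays and 50.9% in mice 1 to 20, beside 48.1%; the cause was not tested. Unequal spread was called for 21 probes with trend and robust settings, 13 in mice 21 to 40, 2 each with median centring, with no detection filter and in mice 1 to 20, and 1 each with the mouse numbering as a block and in the authors' values. No paired analysis was possible because fenofibrate and saline mice share no mouse number. Signal over background limits the dim probes, whose differences are understated.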
